A study of Mus musculus with 4 samples.

Results

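A set of 10 genes known from the early embryo and from pluripotent cells is described here across 4 arrays: the developmental pluripotency associated genes Dppa2, Dppa3, Dppa4 and Dppa5a, the Prame-like genes Pramel6 and Pramel7, and Khdc3, Tcl1, Usp17la and Utf1. They are 10 of 18193 genes measured by probe sets that the platform annotation assigns to a single symbol, and all 10 were found, through 15 probe sets. Total RNA was compared between 2 samples of epiblast-like tissue at day 3 and 2 samples of mouse embryonic stem (ES) cells at day 0 of SFEBq, in which dissociated ES cells re-aggregate and float without serum. The labels give all 4 samples the source "mouse ES cells with SFEBq" and name no line, strain, genotype or added factor. Nor do they say that duplicates came from separate cultures, so p-values here reflect the spread of these 4 samples alone, which can be technical, and the number of arrays limits the precision.

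Many of these genes are active in the oocyte, the cleavage-stage embryo, the inner cell mass and the germ line, and are shut off in most somatic cells. ES cells kept in a naive state express them, and several act on chromatin or DNA methylation there. Dppa2 and Dppa4 form a dimer that binds chromatin through SAP domains, Dppa3 and Pramel7 restrain the methylation factor Uhrf1, and Khdc3 and Dppa5a belong to a family of KH-domain RNA-binding proteins.

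The values are deposited log2 expression values made by RMA, and a difference is day 3 minus day 0 on that scale, with the standard error of the limma fit. Calls were made where p, adjusted over all 18193 genes by the Benjamini-Hochberg method, was under 0.05 in limma. The probe set of a gene with several was chosen by its mean level over the 4 arrays, the highest being kept, so that level is given as a description. The 10 genes were picked by name when earlier results of these arrays were known, and Pramel6 and Khdc3 had stood out there. Their calls describe these arrays and are not independent evidence that such genes fall. In bulk samples fewer cells of a type and less RNA per cell cannot be told apart.

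The arrays went with their labels. Fgf5, which encodes an epiblast growth factor, was at 11.28 and 11.09 at day 3, against 3.49 and 3.74 at day 0, and Otx2, a homeobox gene of the epiblast, averaged 12.07 ± 0.10 at day 3 and 10.05 ± 0.06 at day 0 (SD, n = 2 each). Nanog, a factor of naive cells, was at 10.27 and 9.95 at day 3, against 12.81 and 12.86 at day 0. Pou5f1, which encodes Oct4, was at 12.58 and 12.70, against 12.68 and 12.60. Of all genes, 42.3% were called, and 49.4% of the called genes were higher at day 3, a share that was 33.6% when each array was centred on its median, which shifted every difference by -0.13. Markers of other cells moved in the same arrays. Of 14 visceral endoderm markers 13 were higher at day 3, and their summed signal on the linear scale was 22829 and 25343 at day 3, against 2713 and 2478 at day 0. By the probe sets kept, Apob (6.79), Cubn (5.86), Ttr (4.32) and Dab2 (3.69) had large differences, while other probe sets of Ttr reached 8.97 and of Afp 7.30. Of 9 trophectoderm markers 3 were higher and 3 lower, with summed signals of 6105 and 6255, against 3720 and 3177, Tfap2c (-4.14), Krt18 (2.95), Plac1 (2.49) and Krt8 (2.07) moving most. Krt8 and Krt18, with means of 11.45 and 11.36, were the brightest of the 9 at day 3 and weigh most in those sums. Gata3 (-0.75) and Cdx2 (-0.62) were also called lower. Of 9 fibroblast markers, which would show feeder cells, 3 were higher, with summed signals of 607 and 610, against 339 and 339. They were Thy1 (1.82), Dcn (0.96) and Col1a2 (0.49), and the other 6 were not called. Whether such cells have a part in the differences below was not tested.

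All 10 genes fell, where 21.4% of all genes were called lower. Their differences ran from -4.92 to -0.25 with a median of -2.29, beside a median of 0.01 over all genes. The lowest value is that of Pramel6, whose probe set lay under the arrays' first quartile at day 3. Its difference was -2.96 from the mean of its probe sets and -0.996 without shared probes. Of the 10, 7 fell at least 2-fold and 6 at least 4-fold, as did 4.25% and 1.08% of all genes. Both counts include Pramel6 and Pramel7 through probe sets with shared probes. By their other probe sets, at -0.996 and -0.788, neither reached 2-fold, so both counts and the size of the median would be lower. For each of the 10, both day 3 arrays lay below both day 0 arrays, as they did for 33.7% of all genes. The contrast was known when the genes were picked, so nothing is read from these shares.

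**Figure D1:**
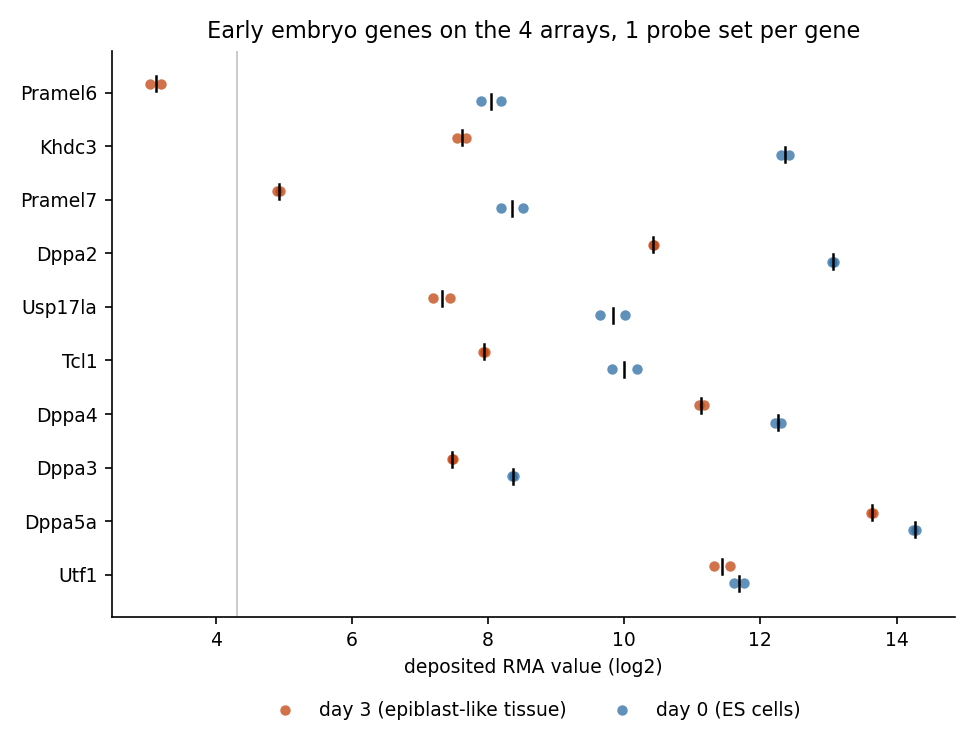
Deposited RMA values (log2, x axis) of the 10 genes, 1 probe set each, with day 3 points above day 0 points for each gene, short black lines for the mean of 2 arrays, and a grey band for the arrays' first quartile. Khdc3 sat near 7.6 at day 3, against 12.4 at day 0, Pramel6 fell below the grey band, and the pairs of Utf1 lay side by side.

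By the probe sets kept, the genes differed in the size of the fall. When the differences of all 4 pairs of a day 3 and a day 0 array were compared, Pramel6 overlapped with Khdc3, Dppa2 with Usp17la, and Usp17la with Tcl1. All other neighbours in the order lay apart. These ranges come from 2 arrays per day and are not a test. Ranked from the largest fall among 18193 genes, Khdc3 was number 8, Dppa2 97, Usp17la 113 and Tcl1 179. Dppa4 stood at 647, Dppa3 at 910, Dppa5a at 1554 and Utf1 at 3947. Pramel6 and Pramel7 stood at 6 and 35 by probe sets that hold shared probes. Their other probe sets had differences of -0.996 and -0.788, smaller falls than that of Dppa4 (-1.13), and the probe set kept for Pramel6 was under the first quartile at day 3. RMA compresses differences of dim probe sets, so this order is one of probe sets as well as of genes.

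**Figure D2:**
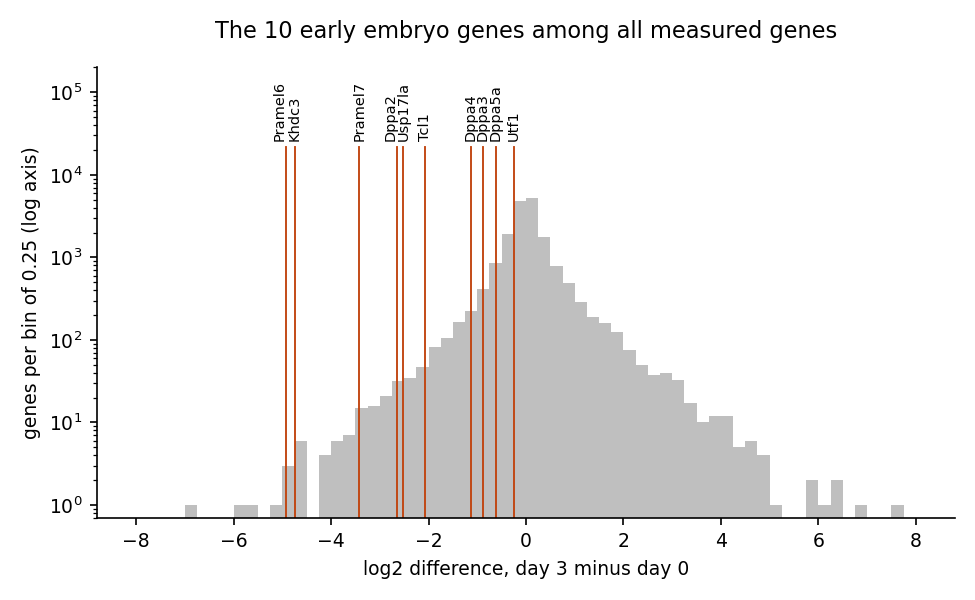
Histogram of log2 differences (day 3 minus day 0, x axis) of all 18193 genes, with the number of genes per bin on a log axis, and lines at the 10 early embryo genes. The lines run from -4.92 for Pramel6 to -0.25 for Utf1, all left of 0.

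The pair of chromatin regulators fell by different amounts. Dppa2 had 10.42 and 10.44 at day 3, against 13.09 and 13.05 at day 0. It fell by 2.64 ± 0.05 (SE) on the log2 scale, or 6.23-fold, and the day 3 arrays differed from each other by 0.01. Its other probe set, without shared probes, gave 10.14 and 10.26 at day 3, against 12.82 and 12.84 at day 0, a difference of -2.63. Dppa4, its partner, had 11.09 and 11.17 at day 3, against 12.31 and 12.21 at day 0, and fell by 1.13 ± 0.06, or 2.18-fold. The 2 probe sets of Dppa2 gave nearly equal falls, each larger than that of Dppa4 in every pair of arrays.

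Dppa3, also called Stella, encodes a maternal protein that protects DNA methylation in the zygote and keeps Uhrf1 from chromatin. It had 7.49 and 7.47 at day 3, against 8.39 and 8.35 at day 0, and fell by 0.89 ± 0.09 (SE), or 1.86-fold. Dppa5a, a KH-domain RNA-binding protein gene known as Esg1, had 13.66 and 13.63 at day 3, against 14.24 and 14.29 at day 0. It fell by 0.62 ± 0.04 and stayed high, 9.31 log2 units above the arrays' first quartile at day 3. Both genes separated the days by more than the duplicates differed, the gap between the days being 22.3 times the larger gap between duplicates for Dppa3 and 11.7 times for Dppa5a.

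Khdc3, or Filia, encodes a part of the subcortical maternal complex of the oocyte and guards chromosome stability in ES cells. It had 7.69 and 7.55 at day 3, against 12.42 and 12.30 at day 0. It fell by 4.74 ± 0.08 (SE), or 26.8-fold, and at day 3 its mean was still 3.29 log2 units above the first quartile. It had a single probe set with no shared-probe suffix, so its value did not depend on a choice of probe set. Dppa5a, from the same family of KH-domain genes, fell 1.54-fold.

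Pramel6 and Pramel7 encode leucine-rich repeat proteins of the Prame family, which act as substrate adaptors of a Cul2 ubiquitin ligase, and lie side by side on chromosome 2. By its brighter probe set Pramel6 had 3.04 and 3.20 at day 3, against 8.19 and 7.90 at day 0, and fell by 4.92 ± 0.14 (SE). Pramel7 had 4.95 and 4.91 at day 3, against 8.51 and 8.19 at day 0, and fell by 3.42 ± 0.13. Both brighter probe sets carry the suffix _s_at, which marks probes shared between transcripts. The other Pramel6 probe set, without shared probes, had 4.34 and 4.51 at day 3, against 5.53 and 5.31 at day 0, a difference of -0.996. That of Pramel7 had 4.47 and 4.31, against 5.26 and 5.10, a difference of -0.79. All 4 probe sets were called lower over all probe sets, as were 16.7% of 45037. Averaged over both probe sets of a gene the difference was -2.96 for Pramel6 and -2.11 for Pramel7. At day 3 the shared probe set of Pramel6 averaged 3.12, under the arrays' first quartile of 4.30 to 4.33, and the other 3 lay within 0.60 above it. Without detection calls, levels this low could be background.

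Across the 10 genes, 13 of 15 probe sets were called lower, 0 higher, and 2 were not called. The 4 genes with several probe sets were Dppa2, Pramel6, Pramel7 and Utf1. The means over the 4 arrays that decided between them were 11.75 and 11.51 for Dppa2, 5.58 and 4.92 for Pramel6, and 6.64 and 4.78 for Pramel7. For Utf1 they were 11.56, 8.34 and 4.94.

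**Figure D3:**
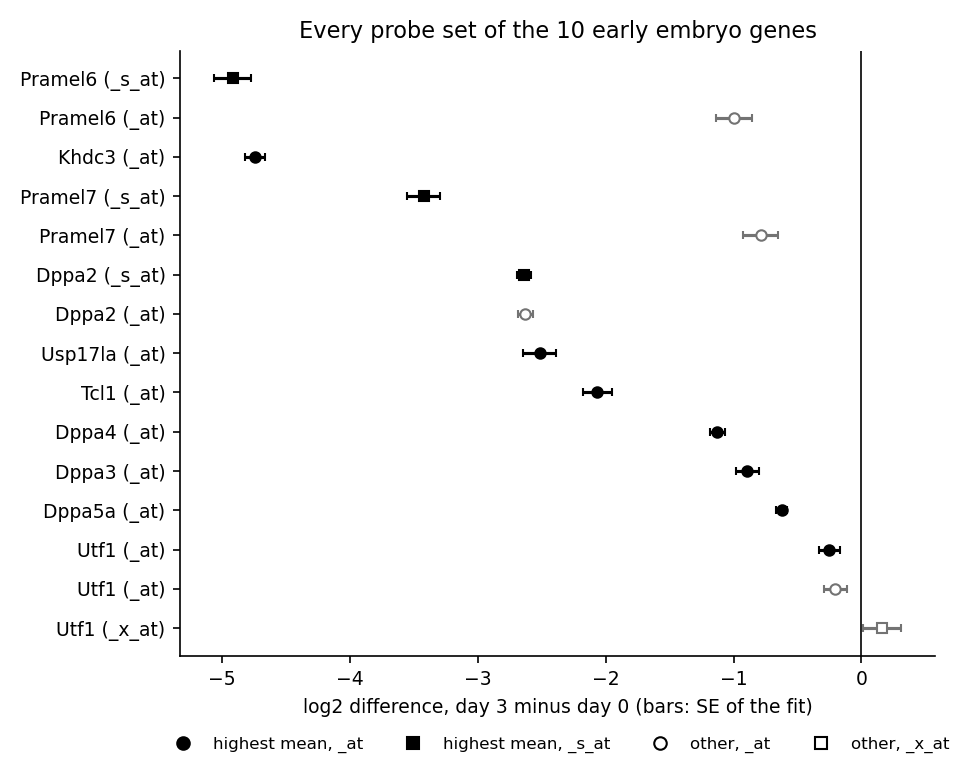
Log2 difference (day 3 minus day 0, x axis) of all 15 probe sets, with bars for the SE of the fit, filled symbols for the probe set with the highest mean and squares for a suffix that marks shared probes. The 2 Dppa2 probe sets coincide near -2.6, while those of Pramel6 are at -4.92 and -0.996 and those of Pramel7 at -3.42 and -0.79.

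Tcl1 encodes a co-activator of the kinase Akt that promotes growth of ES cells. It had 7.92 and 7.95 at day 3, against 9.83 and 10.18 at day 0, and fell by 2.07 ± 0.11 (SE), or 4.19-fold. Usp17la, or Dub1, encodes a deubiquitinating enzyme first known as cytokine-inducible in blood cells. It had 7.44 and 7.20 at day 3, against 10.02 and 9.65 at day 0, and fell by 2.52 ± 0.13, or 5.72-fold. The day 0 arrays were 0.35 apart for Tcl1 and 0.37 apart for Usp17la, the widest gaps between duplicates among the 10 genes. Usp17la belongs to a family of near copies, and signal from another copy's transcript cannot be told apart here.

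Utf1, a chromatin-bound co-factor of pluripotent cells and a target of Oct4 and Sox2, stood at the edge of the test. It had 11.55 and 11.33 at day 3, against 11.61 and 11.77 at day 0, and its difference of -0.25 ± 0.08 (SE) had an adjusted p of 0.0282 (limma, Benjamini-Hochberg). The other 9 genes had adjusted p-values of at most 1.25e-05. The days were separated by 0.06, less than the 0.22 between the day 3 duplicates. A second Utf1 probe set had 8.29 and 8.19 at day 3, against 8.43 and 8.45 at day 0, and the third, with suffix _x_at, had 4.95 and 5.10, against 4.71 and 5.01. Neither was called, with adjusted p-values of 0.116 and 0.485 over all probe sets. The call of Utf1 was lost without the intensity trend (adjusted p = 0.122), after renewed quantile normalization (0.0702), and from the mean of its probe sets (difference -0.10, adjusted p = 0.377). It was also lost without day 0 replicate 2 (-0.17, adjusted p = 0.11) or day 3 replicate 2 (-0.14, adjusted p = 0.285), and its adjusted p was as low as 0.00263 without day 0 replicate 1.

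The promoters of the genes were compared as a property that played no part in choosing them. A table of RefSeq windows of 300 bases, from 250 before to 50 after a start (GRCm38.p6), held 1 window for each of 6 genes: Pramel6, Pramel7, Khdc3, Usp17la, Tcl1 and Utf1. The deposited sources name no build, and genes were matched by symbol. Of these, 4 windows are shown, those of the genes that fell most and of the gene that fell least by the probe sets kept. The choice thus follows the differences, and the windows of Usp17la (1 CpG) and Tcl1 (11 CpGs) are not shown. CpG dinucleotides are the substrate of DNA methylation. Capitals mark each CpG, and sequences run 5′ to 3′ on the gene's strand. They are chr9:73102148-73102447 on the plus strand for Khdc3, chr2:87506315-87506614 on the plus strand for Pramel6, chr2:87492369-87492668 on the minus strand for Pramel7, and chr7:139943606-139943905 on the plus strand for Utf1.
Khdc3: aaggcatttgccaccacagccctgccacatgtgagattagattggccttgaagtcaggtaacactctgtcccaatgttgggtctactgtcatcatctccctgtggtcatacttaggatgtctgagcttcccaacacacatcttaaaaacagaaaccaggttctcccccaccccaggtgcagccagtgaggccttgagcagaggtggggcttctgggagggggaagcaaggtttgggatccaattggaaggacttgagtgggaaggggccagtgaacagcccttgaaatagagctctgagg
Pramel6: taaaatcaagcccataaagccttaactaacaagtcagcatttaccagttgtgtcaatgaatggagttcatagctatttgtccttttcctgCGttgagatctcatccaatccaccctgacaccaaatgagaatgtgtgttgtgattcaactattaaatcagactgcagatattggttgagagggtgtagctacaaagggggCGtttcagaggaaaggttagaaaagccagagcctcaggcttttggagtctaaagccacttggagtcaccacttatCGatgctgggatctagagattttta
Pramel7: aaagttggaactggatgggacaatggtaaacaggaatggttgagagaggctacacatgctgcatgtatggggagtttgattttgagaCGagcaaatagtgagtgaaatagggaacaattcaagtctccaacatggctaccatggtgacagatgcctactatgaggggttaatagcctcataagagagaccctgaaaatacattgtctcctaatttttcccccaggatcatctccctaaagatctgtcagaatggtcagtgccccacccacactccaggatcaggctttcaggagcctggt
Utf1: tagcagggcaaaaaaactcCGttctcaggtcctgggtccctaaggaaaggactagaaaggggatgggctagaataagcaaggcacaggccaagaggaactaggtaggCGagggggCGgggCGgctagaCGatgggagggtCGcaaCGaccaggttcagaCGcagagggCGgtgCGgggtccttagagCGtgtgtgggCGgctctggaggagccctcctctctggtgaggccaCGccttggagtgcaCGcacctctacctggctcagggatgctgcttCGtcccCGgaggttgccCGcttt

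The window of Khdc3 held 0 CpGs, that of Pramel7 and that of Usp17la 1 each, that of Pramel6 3, that of Tcl1 11 and that of Utf1 17, where the median of all 32851 windows was 7 and that of measured genes, each by its richest window, was 18. Listed with their differences, the windows with fewest CpGs belong to Khdc3 (-4.74), Pramel6 (-4.92), Pramel7 (-3.42) and Usp17la (-2.52), and those with more to Tcl1 (-2.07) and Utf1 (-0.25). These are differences of the probe sets kept. By their other probe sets Pramel6 (-0.996) and Pramel7 (-0.788) fell less than Tcl1. No window was held for Dppa2, Dppa3, Dppa4 and Dppa5a. With 6 genes this is a description. A set of 5 motifs was searched on both strands. The CCAAT box (CCAAT) was found 4 times in the window of Khdc3 and 2 times each in those of Pramel6 and Usp17la, and is present in 37.4% of all windows. TTCNNNGAA, a core bound by Stat factors, was found 1 time, in Usp17la, and is present in 8.30% of windows. The octamer ATGCAAAT, the E-box CACGTG and TATAAA were in 0 of the 6 windows, and in 1.74%, 7.15% and 13.6% of all windows. A match is not a bound site.

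Genes that lie beside the 10 on the chromosome were read from the RefSeq table, taking the 3 nearest measured genes on each side. Of 48 distinct neighbours 12 fell, 4 rose and 32 were not called, with a median difference of -0.02. The share of falls was close to the 21.4% of all genes. Of the falls, 4 were beside Dppa3 and 3 beside Dppa5a. Dppa3 lies between Gdf3, a gene of a TGF-beta family ligand, and Nanog. Gdf3 had 7.62 and 7.83 at day 3, against 10.57 and 10.62 at day 0, and fell by 2.87 ± 0.09 (SE), and Nanog fell by 2.72 ± 0.09, each more than the 0.89 of Dppa3. The next genes, Apobec1, encoding an RNA-editing enzyme, and Mfap5, a microfibril gene, had differences of -1.23 and -1.42, both called, while Slc2a3 and Foxj2 on the far side of Nanog were not called (differences -0.16 and 0.05).

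Next to Dppa5a, its relative Ooep, another gene of the subcortical maternal complex, had 8.70 and 8.47 at day 3, against 10.92 and 11.17 at day 0, and fell by 2.46 ± 0.10 (SE). Beyond it Ddx43, a germline RNA helicase gene, fell by 1.73 and Cgas, a DNA sensor gene, by 0.97. On the other side Gsta2, Omt2b and Omt2a were not called and lay near or below the first quartile. Dppa4 and Dppa2 are adjacent, with Morc1, a gene of transposon repression in germ cells, nearby, which fell by 2.35 ± 0.07. Nectin3, an adhesion gene on the other side of the pair and 1785 kb from Dppa4, rose by 0.92.

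The remaining genes fell among neighbours that mostly were not called. Pramel7 and Pramel6 had olfactory receptor genes among their nearest measured neighbours, all under the arrays' first quartile on both days. These lay between 463 kb (Olfr74) and 2510 kb (Olfr1264) from Pramel6. Of these Olfr74 was called higher, and Olfr154, Olfr73 and Olfr1264 were not called. Beside Tcl1 its relatives Tcl1b4, Tcl1b3 and Tcl1b1 had differences of -0.04, 0.02 and 0.12 and were not called. Tcl1b3, at 10.39 and 10.36 at day 3, against 10.36 and 10.34 at day 0, was measured by a probe set with suffix _x_at. On the other side D430019H16Rik rose by 1.36 and Tunar, a long noncoding RNA gene of pluripotent cells, by 0.44. Khdc3 had Rab27a, of vesicle transport, and Rsl24d1, of ribosome assembly, beside it, with called differences of -1.33 and -0.35. Around Utf1 Tubgcp2 fell by 0.39, around Usp17la Fam160a2 fell by 0.27, and the other 5 neighbours of each were not called.

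**Figure D4:**
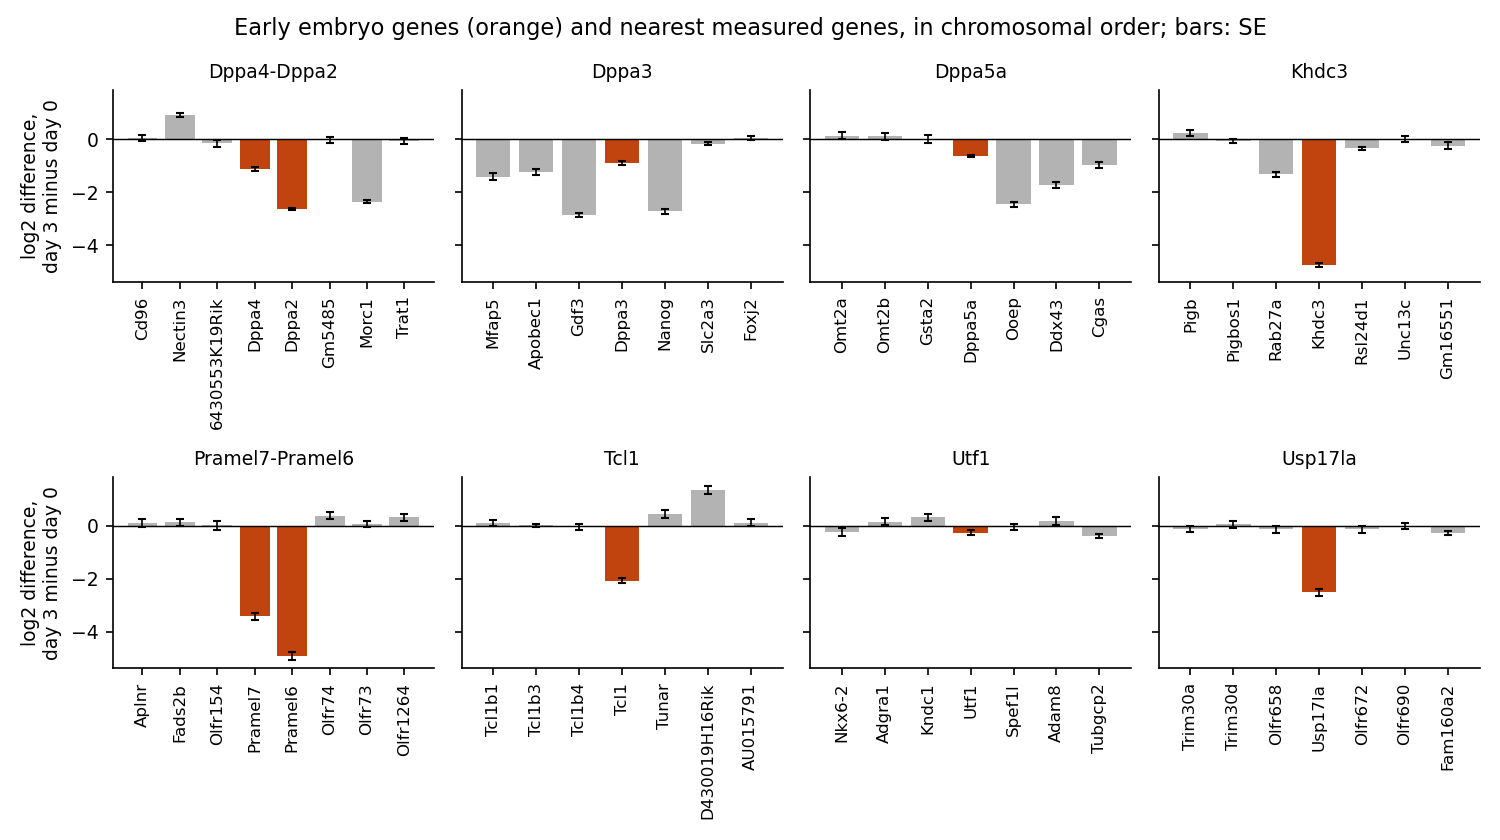
Log2 difference (day 3 minus day 0, y axis) of the early embryo genes in orange and of the 3 nearest measured genes on each side in grey, in chromosomal order, with bars for the SE. Of the neighbours, 4 of Dppa3, 3 of Dppa5a, 2 of Khdc3 and 1 each of Utf1, Usp17la and the Dppa4 and Dppa2 pair fell. Those of Pramel7, Pramel6 and Usp17la lie between -0.27 and 0.39.

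Relatives and partners of the 10 genes were read from the same fit. The percentages of all genes called lower and higher were 21.4% and 20.9%. Of 7 measured Prame-like and oogenesin genes 2 fell, 1 rose and 4 were not called, with a median difference of -0.07. Pramel18 had 4.57 and 4.61 at day 3, against 7.75 and 7.16 at day 0, and fell by 2.86 ± 0.17 (SE). Pramel12 fell by 1.52 ± 0.09, and its other 2 probe sets had differences of -1.74 and -1.21. Prame, for which the family is named, was at 4.51 and 5.14 at day 3, against 4.11 and 4.10 at day 0, and rose by 0.73 ± 0.18. Pramel1, Pramel13, Oog3 and Oog4 were not called.

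Of 8 genes of the maternal complex and KH-domain families 3 fell and 5 were not called (median -0.18). Beside Ooep, Tle6, a Groucho-related member of the maternal complex, had 7.39 and 7.64 at day 3, against 9.15 and 9.39 at day 0, and fell by 1.76 ± 0.11 (SE). Nlrp4f, an NLR family gene of oocytes, fell by 1.69 ± 0.14. Nlrp5, Padi6 and Zbed3, other genes of the complex or linked to it, were not called, with differences of -0.14, -0.22 and -0.10. Khdc1a averaged 2.88 at day 3 and 2.91 at day 0, and Khdc1b 3.48 and 3.50, below the arrays' first quartile.

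Of 6 Tcl1 relatives and Akt kinases 1 fell, 1 rose and 4 were not called (median -0.01). Akt1 had a difference of 0.31 and Akt2 one of -0.36, both called, beside the -2.07 of Tcl1. Relatives of Usp17la were not analysed here, as no probe set with a single symbol stood for them.

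Of 9 genes of the 2-cell stage or activated by Dppa2 and Dppa4, 5 fell and 4 were not called (median -0.52). The median is the difference of Tcstv3, which averaged 3.36 at day 3 and 3.88 at day 0. Both levels lay under the arrays' first quartile. Tcstv1 (-0.83) averaged 3.69 at day 3, also under that quartile, and its day 0 arrays lay on either side of it. Without detection calls, levels this low could be background. The other called genes, Eif1a (-0.57), Zfp42 and Arg2, lay above the first quartile on both days. Zfp42 had 10.67 and 10.58 at day 3, against 13.16 and 13.17 at day 0, and fell by 2.54 ± 0.06 (SE). Arg2, an arginase gene, fell by 1.23 ± 0.11. Genes of DNA methylation and of the Cul2 ligase fell in 9 of 15 cases, rose in 3 and were not called in 3 (median -0.42). Uhrf1, which Pramel7 and Dppa3 restrain, had 12.34 and 12.26 at day 3, against 12.95 and 12.92 at day 0, and fell by 0.64 ± 0.05. Cul2 itself fell by 0.43 ± 0.06. The largest changes were those of Tet2 (-4.09), Dnmt3l (-1.51), Tet1 (-1.44) and Dnmt3b (1.37).

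Of 18 genes of the pre-implantation embryo and naive state, all 18 fell, with a median of -2.75. That of the 10 genes described here was -2.29 by the probe sets kept, which for Pramel6 and Pramel7 hold shared probes. By their other probe sets (-0.996 and -0.788) it would lie further from -2.75. Prdm14 (-4.84), Klf4 (-3.80), Tfcp2l1 (-3.33) and Tbx3 (-3.19) moved most. Zfp42, Ooep, Nanog, Klf4 and Dnmt3b stood in more than 1 list, and these lists were drawn up when results of these arrays were known, so the counts are descriptions. The median profile of the 10 over the 4 arrays was also taken by the probe sets kept, each gene centred on its own mean. Closest to it among all genes outside the 10 were Pim1, a kinase gene (Euclidean distance 0.02, difference -2.25), and Kit, a receptor gene (0.06, -2.24). Clgn (0.09, -2.33), Psma8 (0.10, -2.18) and Ddc (0.10, -2.17) came next. Over 4 arrays of 2 days a small distance mostly means a similar difference, so nothing more is read from it.

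**Figure D5:**
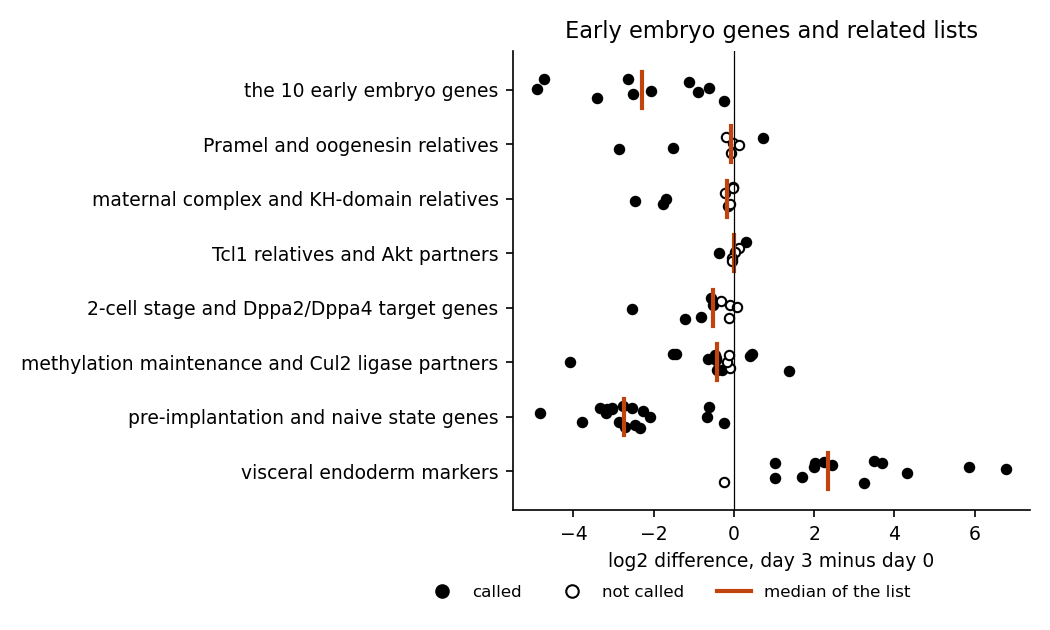
Log2 differences (day 3 minus day 0, x axis) of the 10 early embryo genes and of genes in 7 lists, each point 1 gene, filled where called, with an orange line at the list's median. The 10 genes and the naive state genes lie left of 0, relatives of Pramel6, Khdc3 and Tcl1 lie mostly near 0, and visceral endoderm markers lie to the right.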

How the data were processed

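Gene expression was measured on Affymetrix arrays in 4 samples, 2 at day 3 and 2 at day 0, grouped by their titles. The deposited table holds log2 values made by the authors with RMA in R 2.13.0, per the submitters' processing notes. Further settings and a genome build are not given in the sources used here. RMA makes the arrays' distributions alike, so a change in total RNA per cell cannot be seen.

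Of 45101 probe sets 64 were controls, 34945 of the others had 1 gene symbol in the platform annotation and 932 had several, from which no gene was named. Identifiers of 34741 were found in the RefSeq gene table (GRCm38.p6), used for names, chromosomes and order, and 0 symbols were updated. For each of 18193 genes the probe set of highest mean was kept. Differences were fitted with limma 3.58.1 in R 4.3.3 (lmFit, eBayes with an intensity trend, no covariate), two-sided, with Benjamini-Hochberg adjustment, once over all genes and once over all 45037 probe sets that are not controls. Residual degrees of freedom were 2, and the shared prior added 8.02. It was checked on simulated data.

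The 10 genes, the related lists, the markers and the alternatives were chosen with earlier results of these data known. Named genes were taken from the 10, in each list up to 4 called genes with a difference of at least 1, the 3 nearest measured neighbours on each side, the label markers and the 5 genes of nearest profile. Other list genes (Pramel1, Pramel13, Oog3, Oog4, Nlrp5, Padi6, Zbed3, Khdc1a, Khdc1b, Akt1, Akt2, Eif1a, Tcstv1, Tcstv3, Uhrf1, Cul2, Prame, Afp, Dcn, Col1a2, Gata3 and Cdx2) were named after their values were seen. Alternatives were other variance models, renewed normalization, a level filter, other probe set choices, a replicate block, stricter thresholds and each array left out. List entries and family copies without a probe set of a single symbol were not analysed here.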

Additional observations from a re-analysis of the deposited data

How the results depend on the processing

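Of 118 recomputed differences of the 10 genes, 113 kept their direction and their side of the threshold, 5 kept the direction but were no longer called, and 0 changed sign. The 5 were all of Utf1, and the other 9 genes were called lower in each alternative that held them. Pramel6 and Pramel7 lay below the median level and had no value under that filter. Of 102 recomputed counts of calls 98 stayed within 1.5 times. Tested against a log2 difference of 1, 664 genes were higher, 472 were lower and 6 of the 10 genes were lower, since that test asks for a larger change. Lower probe sets numbered 4869 without day 3 replicate 1, and between 4869 and 6995 with 1 array left out, against 7522 with all 4. The count was lower without a day 3 array (4869 and 5024) than without a day 0 array (6783 and 6995), and the cause was not tested. When an arm held 1 array, it was assumed to vary like the other arm.

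With the replicate number as a block 3789 genes were higher and 3871 lower, all 10 genes were lower, and Utf1 had an adjusted p of 0.0267. The labels give the duplicates of the 2 days only a number in common. The correlation over genes of replicate 1 minus replicate 2 between the days was -0.02. Noise of single arrays also enters these differences, so this cannot decide whether samples of the same number were paired.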

Other observations

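Over all measured genes the share at least 4-fold lower had no steady order with the number of CpGs in the promoter window. The listing of the 6 early embryo genes by CpG rests on the probe sets kept. Genes were placed by their window richest in CpG, for 14452 genes with a window. At least 4-fold lower at day 3 were 0.96% of 1878 genes with 0 to 3 CpGs, 1.22% of 1804 genes with 4 to 7, 1.15% of 4510 genes with 8 to 20 and 0.88% of 6260 genes with 21 to 67. Genes called lower by any amount made up 7.24%, 11.9%, 24.6% and 27.6% of these classes, whose median levels were 4.51, 5.18, 7.46 and 8.60 on the log2 scale. Brighter genes were called more often, and the median differences were 0.02, 0.03, 0.01 and -0.01. These classes are a description of the arrays with no test.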
